A study of Homo sapiens with 12 samples.

Results

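The expression of 51 genes of DNA replication and mitosis was followed in 786-O cells that carried BBOX1 or an empty vector, in culture and in mouse xenografts. The genes were taken by name from the deposited table of 58735 genes and were sorted by textbook role into 22 replication (S-phase) genes and 29 mitosis genes. All 51 were found, and all 51 passed the low-count filter of every comparison. No threshold on measured values was used to pick the names. They and the further lists below were, however, chosen with earlier results of these data known, so their direction and counts are no independent support.

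786-O is an established line of human clear cell renal cell carcinoma, and BBOX1 is gamma-butyrobetaine hydroxylase, the last enzyme of carnitine synthesis. The study sequenced polyA RNA of 12 libraries in 4 groups of 3: cultured 786-O cells with BBOX1 re-expression, cultured 786-O cells with empty vector, and xenograft tumours of each of these lines in NOD SCID gamma (NSG) mice aged 6 to 8 weeks, which lack mature lymphocytes. All lines of the study were made with lentivirus and selected in puromycin or neomycin, depending on the vector. The design asks how BBOX1 alters expression in either setting. The labels do not say whether the 3 replicates were separate cultures or separate mice, so the p-values below measure only the spread between these libraries, which may be technical.

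Replication starts when origins are loaded with the MCM2 to MCM7 helicase by ORC, CDC6 and CDT1, and when CDC45 and the GINS complex turn that helicase on. Cyclin E with CDK2 frees the E2F factors from the retinoblastoma protein, and E2F then drives the S-phase genes. The mitotic genes peak later, in G2 and M, under the MuvB complex with B-MYB (MYBL2) and FOXM1, through the CHR element of their promoters. Proliferation genes of both kinds are used in tumours, renal carcinoma included, as a measure of cycling cells. In bulk RNA, fewer cycling cells and less RNA of these genes per cycling cell cannot be told apart.

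The libraries held 13729031 to 26758712 counts. BBOX1 itself was at 0 counts in all 3 empty-vector cultures, which allows up to 3 counts in each, and at 1067 to 1096 CPM (counts scaled to library size) in the BBOX1 cultures. In tumours it had 6 to 14 counts in the empty-vector libraries and 1272 to 1896 CPM in the BBOX1 libraries, so every library matched its label. BBOX1 tumour replicate 1 stood apart: its counts differed from replicates 2 and 3 by a chi-square per degree of freedom of 41.0 and 40.9, against 8.61 between replicates 2 and 3, 11.6 to 14.8 among empty-vector tumours and 1.89 to 2.70 among cultures. For the 51 genes, the main counts and medians and some single genes are therefore given with and without that library. The further lists in tumours are given without it only within a range over left-out libraries. The length and GC correction is given only with it. Markers of leukocytes, endothelium and erythroid cells, 6 genes each, summed to at most 4.89 CPM in any library, whereas 6 fibroblast genes summed to 8.95 to 10.4 CPM in cultures and 243 to 432 CPM in tumours, mostly COL1A1 and COL3A1. Of the 6 fibroblast genes, 3 had a mean of 1 CPM or more in each tumour group and in empty-vector cultures, and 2 in BBOX1 cultures. DCN and PDGFRA, of the same list, were near 0. The ranges of the 2 tumour groups, 243 to 432 CPM with empty vector and 250.4 to 369.6 CPM with BBOX1, overlapped. The 786-O list summed to 2687 to 2880 CPM in cultures and 4853 to 6076 CPM in tumours, although CA9 was at or below 1 CPM in cultures. The library kit does not mark strand, and 20 of the 51 genes share exon sequence with another gene, so their reads cannot be told apart from the partner's in the shared part. Among them is PRC1, a microtubule bundler of cytokinesis, which was counted at only 4.30 CPM in empty-vector cultures beside 13.4 CPM for AC068831.7, a gene on the same strand that shares its exons.

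The promoters of the 2 classes held the E2F and CHR motifs in different shares. Of the 8 windows below, 6 were picked after the search to show where the motifs lie in genes of the comparisons below, and the windows of CCNB1 and MYBL2 are shown because these genes changed in both settings and hold neither motif. Each runs from 250 bases before to 50 bases after the gene start in RefSeq (GRCh38.p14), which can lie apart from the GENCODE 29 gene bounds, and is written 5′ to 3′ on the gene's strand. In the replication genes, capitals mark the E2F motif (TTTGGCGC, TTTCGCGC, TTTCCCGC or TTTGCCGC, or its reverse complement).
MCM7, chr7:100101348-100101647 (minus strand): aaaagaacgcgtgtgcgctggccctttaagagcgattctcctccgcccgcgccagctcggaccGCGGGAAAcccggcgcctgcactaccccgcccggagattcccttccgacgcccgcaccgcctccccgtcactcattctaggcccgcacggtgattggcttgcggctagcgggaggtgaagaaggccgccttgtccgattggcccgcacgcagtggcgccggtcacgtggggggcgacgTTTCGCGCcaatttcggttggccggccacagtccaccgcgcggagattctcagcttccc
E2F1, chr20:33686336-33686635 (minus strand): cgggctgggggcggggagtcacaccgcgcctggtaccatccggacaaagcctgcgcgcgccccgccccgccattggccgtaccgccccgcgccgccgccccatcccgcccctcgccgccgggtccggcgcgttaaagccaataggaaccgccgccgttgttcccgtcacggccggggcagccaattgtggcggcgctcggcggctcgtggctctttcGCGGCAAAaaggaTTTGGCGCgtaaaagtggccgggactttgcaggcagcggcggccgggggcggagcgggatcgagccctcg
PCNA, chr20:5126573-5126872 (minus strand): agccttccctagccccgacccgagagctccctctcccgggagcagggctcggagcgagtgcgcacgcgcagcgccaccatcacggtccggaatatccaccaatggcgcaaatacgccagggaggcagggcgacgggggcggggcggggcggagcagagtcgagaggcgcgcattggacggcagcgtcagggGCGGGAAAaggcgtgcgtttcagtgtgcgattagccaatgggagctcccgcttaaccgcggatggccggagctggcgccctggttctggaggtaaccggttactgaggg
In the mitosis genes, capitals mark the CHR element (TTTGAA or TTCGAA, or its reverse complement).
CCNB2, chr15:59104896-59105195 (plus strand): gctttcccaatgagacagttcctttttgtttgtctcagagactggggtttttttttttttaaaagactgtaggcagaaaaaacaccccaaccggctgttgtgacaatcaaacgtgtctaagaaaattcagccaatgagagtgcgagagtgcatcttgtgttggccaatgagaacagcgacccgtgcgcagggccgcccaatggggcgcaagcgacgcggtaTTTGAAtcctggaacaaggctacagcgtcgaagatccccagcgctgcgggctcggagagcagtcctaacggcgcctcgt
PLK1, chr16:23678639-23678938 (plus strand): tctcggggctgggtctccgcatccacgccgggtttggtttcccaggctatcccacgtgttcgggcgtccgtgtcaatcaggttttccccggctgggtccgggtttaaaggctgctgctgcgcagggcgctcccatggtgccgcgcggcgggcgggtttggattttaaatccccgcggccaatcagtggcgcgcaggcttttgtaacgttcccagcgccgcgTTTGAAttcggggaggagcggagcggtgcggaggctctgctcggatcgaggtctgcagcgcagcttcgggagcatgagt
CDC20, chr1:43358731-43359030 (plus strand): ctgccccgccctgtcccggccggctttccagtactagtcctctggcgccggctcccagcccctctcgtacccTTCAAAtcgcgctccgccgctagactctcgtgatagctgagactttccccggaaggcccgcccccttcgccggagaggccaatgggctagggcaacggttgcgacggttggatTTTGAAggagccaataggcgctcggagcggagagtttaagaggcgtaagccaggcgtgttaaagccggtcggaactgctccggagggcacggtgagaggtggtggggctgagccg
The last pair has no match to mark.
CCNB1, chr5:69166900-69167199 (plus strand): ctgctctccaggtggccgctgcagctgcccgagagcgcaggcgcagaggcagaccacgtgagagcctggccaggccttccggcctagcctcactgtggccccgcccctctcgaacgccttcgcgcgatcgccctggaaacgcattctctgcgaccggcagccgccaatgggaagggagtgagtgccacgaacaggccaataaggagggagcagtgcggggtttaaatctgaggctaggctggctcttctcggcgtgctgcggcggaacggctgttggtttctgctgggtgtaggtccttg
MYBL2, chr20:43666864-43667163 (plus strand): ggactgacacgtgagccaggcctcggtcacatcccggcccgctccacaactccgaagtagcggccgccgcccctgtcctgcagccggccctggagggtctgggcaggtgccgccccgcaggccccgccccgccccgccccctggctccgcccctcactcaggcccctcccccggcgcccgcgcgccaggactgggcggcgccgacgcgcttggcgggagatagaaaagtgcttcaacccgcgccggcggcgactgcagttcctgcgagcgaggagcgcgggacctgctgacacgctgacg
MCM7 held 2 E2F matches, 187 and 9 bases before the start, and E2F1 held 2, at 33 and 20 bases before it. PCNA held 1, at 59 bases. CCNB2 and PLK1 each held 1 CHR match at the same distance, 29 bases before the start. CDC20 held 2, at 178 and 65 bases. CCNB1 and MYBL2, and also CCNA2, held 0 matches to either motif, which says only that these letters are not in these windows.

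A window was on hand for 41 of the 51 genes. AURKA, BIRC5, CCNE2, CDK2, FOXM1, MCM4, MCM5, TPX2, TTK and UBE2C had none. The E2F motif stood in 12 of 18 replication windows (66.7%), in 3 of 23 mitosis windows (13%) and in 3.31% of all 35114 windows of the same length. The CHR element stood in 2 of 18 replication windows (11.1%), in 15 of 23 mitosis windows (65.2%) and in 16.4% of all windows. CCAAT, searched on both strands as the core of the NF-Y site, stood in 72.2%, 78.3% and 34.6%. Matches of different motifs overlapped in MCM7, where a CCAAT touched the second E2F match, and in MKI67, where one touched a CHR match. A match is a run of letters and not a shown binding site.

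**Figure D1:**
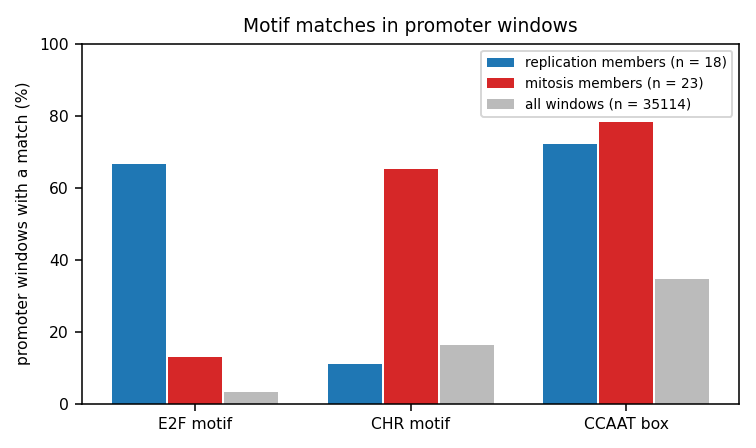
Share of promoter windows (percent) with at least 1 match to the E2F motif, the CHR element or CCAAT, for 18 replication genes, 23 mitosis genes and all 35114 windows. The E2F bar is tallest for replication genes (66.7%) and the CHR bar for mitosis genes (65.2%), while CCAAT is at 72.2% and 78.3%.

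Both classes were highest in cultures, lower in empty-vector tumours and lowest in BBOX1 tumours. The mean log2 CPM of the 22 replication genes was 6.21, 6.22 and 6.26 in the empty-vector cultures and 6.35, 6.37 and 6.32 in the BBOX1 cultures. In tumours it was 5.22, 5.29 and 5.32 with empty vector and 5.13, 4.94 and 4.79 with BBOX1. The ranges of the 4 groups did not overlap, and BBOX1 tumour replicate 1 came nearest to its controls.

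The 29 mitosis genes had a mean log2 CPM of 7.03, 7.06 and 7.05 in the empty-vector cultures and 7.06, 7.10 and 7.07 in the BBOX1 cultures. In tumours it was 5.84, 6.12 and 5.88 with empty vector and 5.61, 5.44 and 5.20 with BBOX1. Here the culture groups nearly touched and the tumour groups lay apart, with empty-vector replicate 2 the highest tumour and BBOX1 replicate 3 the lowest.

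The gap between the classes was widest in empty-vector cultures and narrowest in BBOX1 tumours. Mitosis minus replication was 0.82 ± 0.02 (log2, SD, n = 3) in empty-vector cultures, 0.73 ± 0.02 in BBOX1 cultures, 0.67 ± 0.14 in empty-vector tumours and 0.46 ± 0.04 in BBOX1 tumours. In culture the smaller gap with BBOX1 came with a higher replication mean (6.35 ± 0.02 against 6.23 ± 0.02), while the mitosis means were 7.08 ± 0.02 and 7.05 ± 0.01. In tumours it came with the mitosis mean (5.42 ± 0.21 against 5.95 ± 0.15) lying further below its control than the replication mean (4.96 ± 0.17 against 5.28 ± 0.05). The empty-vector tumours spread widely, from 0.56 in replicate 3 to 0.83 in replicate 2, and overlapped both culture groups. The gap is a difference between means over genes of unequal length, so that its size in 1 group cannot be read. Its change between cultures and tumours depends on gene length and GC content. After the correction described below, the empty-vector medians relative to all genes were -1.06 for replication and -1.03 for mitosis.

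**Figure D2:**
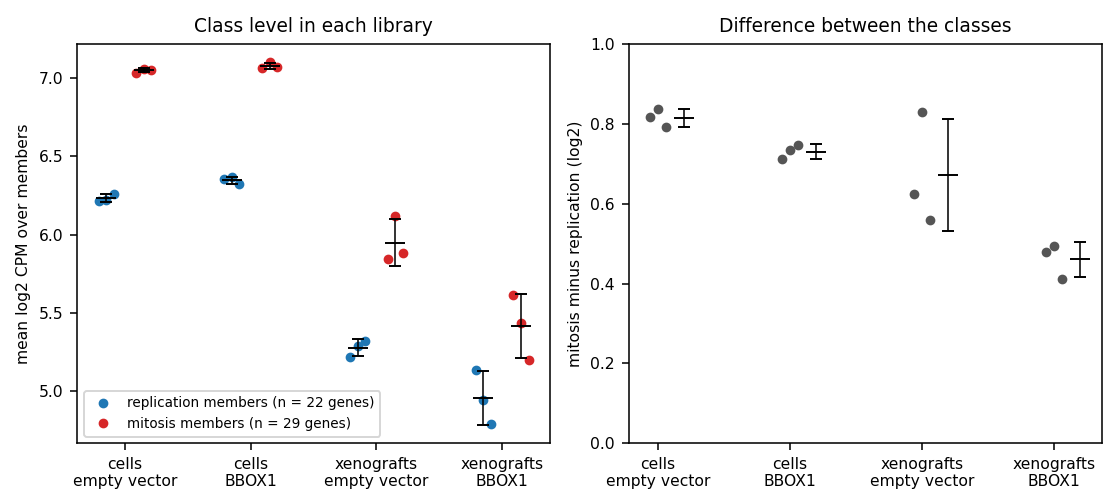
Left, mean log2 CPM over the replication genes (blue) and the mitosis genes (red) in each of the 12 libraries, with the group mean and SD (n = 3). Right, mitosis minus replication in each library, where BBOX1 tumours lie lowest, at 0.41 to 0.49.

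Per kilobase of exon, the mitosis genes were the more abundant class, with a median of 38.1 CPM per kb in empty-vector cultures against 22.3 for the replication genes. The medians were 20.1 and 11.2 in empty-vector tumours and 12.96 and 8.52 in BBOX1 tumours. CDC20, the activator of the anaphase-promoting complex, led in empty-vector cultures with 169 CPM per kb, before the spindle assembly factor TPX2 with 120.4 and the ubiquitin-conjugating enzyme UBE2C with 108. In both tumour groups UBE2C led instead, with 89.2 CPM per kb under empty vector and 79.2 under BBOX1. The cyclin E genes CCNE1 and CCNE2 were among the lowest, at 1.38 to 4.37 CPM per kb, beside the E2F gene E2F2 at 1.55 to 5.23, and PRC1 was last in each group.

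**Figure D3:**
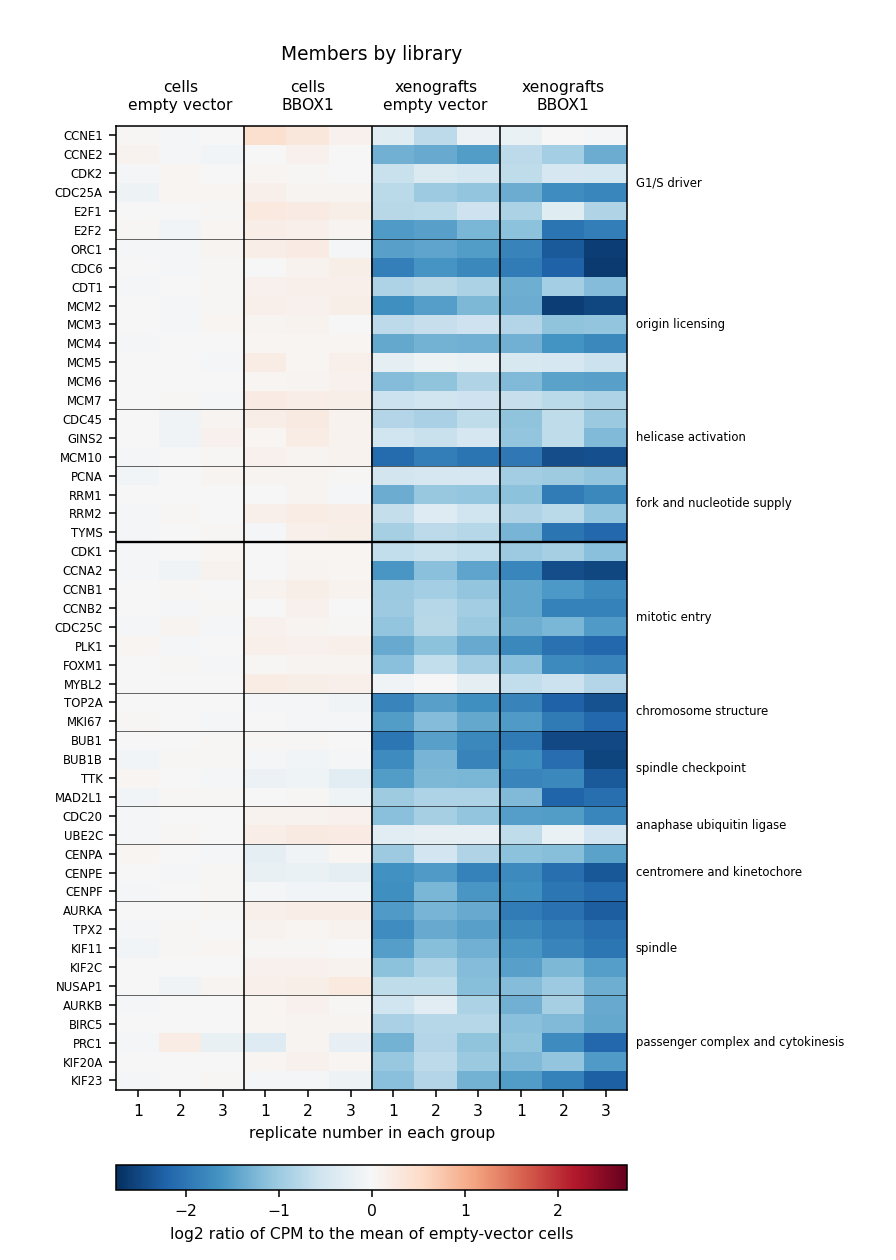
Log2 ratio of CPM to the mean of the empty-vector cultures for each of the 51 genes (rows, by role) in each of the 12 libraries (columns). BBOX1 cultures are pale red in most replication rows. Tumours are blue in most rows, often deepest in BBOX1 replicate 2 or 3, while CCNE1, MCM5, MYBL2 and UBE2C stay pale.

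In culture, BBOX1 went with small increases of replication genes. Of the 22, 7 rose and 0 fell by edgeR's quasi-likelihood test at an adjusted p under 0.05 (Benjamini-Hochberg over 14960 genes), where 8.53% of all genes tested rose and 7.86% fell. All 22 fold changes were positive, with a median of 0.10 on the log2 scale beside -8.05e-04 over all genes. For 13 of the 22, every BBOX1 culture lay above every empty-vector culture, as it did for 15.9% of all genes.

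Among the drivers of S-phase entry, the transcription factor E2F1 was at 82.8, 83.4 and 85.7 CPM in the empty-vector cultures and at 101, 97.9 and 94.5 CPM in the BBOX1 cultures. The groups did not overlap, and the log2 fold change was 0.22 ± 0.04 (SE, edgeR adjusted p = 1.02e-04). CCNE1 was the largest change of the class and not past the threshold, at 0.31 ± 0.11 (adjusted p = 0.0532), with 9.24, 8.88 and 9.10 CPM against 12.2, 11.3 and 9.82 CPM. CDK2, CDC25A, E2F2 and CCNE2 did not pass, with log2 fold changes of 0.04 to 0.13.

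Licensing held most of the calls, 4 of 9 genes. MCM7, a helicase subunit, was at 419, 426 and 412 CPM with empty vector and at 489, 475 and 471 CPM with BBOX1. This was the smallest p of all 51 genes in culture, with a log2 fold change of 0.19 ± 0.03 (edgeR adjusted p = 1.02e-06). Its sister subunits MCM5 and MCM2 rose by 0.13 and 0.13 (edgeR adjusted p = 0.00443 and 0.00553), whereas MCM3, MCM4 and MCM6, at 0.05 to 0.08, did not pass.

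MCM5 was at 174, 174 and 170.3 CPM with empty vector and at 198, 181 and 189 CPM with BBOX1. MCM2 was at 138, 136 and 141 CPM and 152, 149 and 154 CPM. The loading factor CDT1 rose by 0.13 (edgeR adjusted p = 0.0314), while ORC1 and CDC6, which recruit the helicase to origins, were at 0.13 and 0.08 and did not pass. TPRA1, which overlaps MCM2 on the other strand, was at 60.2 CPM with empty vector and 70.3 CPM with BBOX1. For MCM5, MCM2 and CDT1, each BBOX1 culture was above each control. The CDT1 call was lost in 5 of 6 fits that left out a library.

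CDC45, a partner of the active helicase, rose by 0.17 (edgeR adjusted p = 0.0347), from 40.3, 37.5 and 41.9 CPM to 45.0, 47.1 and 42.9 CPM. Its call was lost in 3 of 6 fits that left out a library, and DESeq2 did not call it. RRM2, the regulated subunit of ribonucleotide reductase, was at 119.6, 126 and 125 CPM with empty vector and at 137, 141 and 139 CPM with BBOX1, a rise of 0.17 (edgeR adjusted p = 5.61e-04). The groups were apart for both genes. PCNA, the sliding clamp, was at 138, 147 and 153 CPM and 154, 154 and 150.4 CPM, and the groups overlapped (log2 fold change 0.06 ± 0.03, adjusted p = 0.228). RRM1 and the thymidylate synthase TYMS, at 0.01 and 0.08, did not pass either.

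The mitosis genes were mixed in culture. Of the 29, 8 rose and 3 fell against the same backgrounds of 8.53% and 7.86%, and the median log2 fold change was 0.04. Groups were apart upwards for 12 and downwards for 5, against 15.9% and 15.1% of all genes. The rises were in entry, spindle and anaphase genes and the falls in chromosome, checkpoint and kinetochore genes.

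UBE2C, which builds ubiquitin chains with the anaphase-promoting complex, was at 135, 143 and 139 CPM with empty vector and at 159, 165 and 163 CPM with BBOX1. MYBL2, the B-MYB factor of late-cycle promoters, was at 245, 242 and 246 CPM and 279.8, 273 and 271 CPM. Both were higher in each BBOX1 culture, by 0.22 ± 0.03 and 0.17 ± 0.03 on the log2 scale (edgeR adjusted p = 1.01e-05 and 3.57e-05). The mitotic kinase gene AURKA was at 159, 158 and 164 CPM with empty vector and at 176, 182 and 182 CPM with BBOX1 (0.16 ± 0.03, edgeR adjusted p = 3.69e-04). PLK1, the polo-like kinase of mitotic entry, was at 260.3, 244 and 248 CPM and 277, 272 and 276 CPM (0.13 ± 0.03, edgeR adjusted p = 0.00155). CDC20, the microtubule depolymerase KIF2C, TPX2 and the cyclin gene CCNB1 rose by 0.09 to 0.12.

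In the other direction, CENPE, a kinetochore motor, was at 109, 105 and 109.6 CPM with empty vector and at 94.0, 95.3 and 90.6 CPM with BBOX1, a log2 fold change of -0.21 ± 0.04 (edgeR adjusted p = 1.46e-04). The checkpoint kinase gene TTK fell by 0.18 (edgeR adjusted p = 0.0110) and TOP2A, the topoisomerase that untangles sister chromatids, by 0.07 (edgeR adjusted p = 0.0451). All 3 were lower in each BBOX1 culture. With a library left out, the TOP2A call was lost in 6 of 6 fits (-0.07 to -0.06), the TTK call in 2 of 6, without BBOX1 replicate 3 or empty-vector replicate 1 (-0.22 to -0.14), and the CENPE call in 0 of 6. Of the 7 replication rises 4 and of the 8 mitosis rises 5 were called in each of these fits. MKI67, the proliferation marker that coats mitotic chromosomes, was at 715, 689 and 686 CPM and 702, 685 and 685 CPM, with overlapping groups (-0.01 ± 0.02, adjusted p = 0.762).

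After a correction for gene length and GC content TTK was at -0.14 (edgeR adjusted p = 0.0523), CENPE at -0.09 and TOP2A at -0.0022 in log2 fold change, so that 0 falls were called, beside 11 rises among mitosis genes and 8 among replication genes. All genes shifted in that fit too: 11.6% rose in place of 8.53% and 4.83% fell in place of 7.86%. Their median went from -8.05e-04 to 0.025. Median GC was 51.1% in the replication genes and 46.6% in the mitosis genes. With all 12 libraries sharing 1 spread, 0 of the 51 were called in culture, with 1 gene of each class at an unadjusted p under 0.05. Over all 16927 genes of that fit 1 rose and 1 fell.

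Other genes of the same pathways, taken from lists of textbook function, were tested in the same fit, where 8.53% of all genes rose and 7.86% fell. Of 45 further replication genes 7 rose (15.6%) and 0 fell, among them the chromatin assembly partner ASF1B (0.25 ± 0.04), thymidine kinase TK1 (0.22 ± 0.03) and UHRF1 (0.12 ± 0.03), which reads hemimethylated DNA. Of 54 further mitosis genes 3 rose (5.56%) and 7 fell (13%). UBE2S, the chain-extending partner of UBE2C, rose by 0.25, while the motor KIF4A and the spindle protein DLGAP5 fell by 0.17 and 0.18.

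Of 16 genes of the retinoblastoma and DREAM complexes 2 rose (12.5%, beside 8.53% of all genes) and 0 fell. They were the E2F partner TFDP1 (0.19 ± 0.03) and RBBP4 (0.09 ± 0.03). With a library left out, the RBBP4 call was lost in 5 of 6 fits and the TFDP1 call in 0 of 6. CDK4 and CCND3 rose by 0.25 and 0.14 among 5 tested G1 cyclin and kinase genes. The CCND3 call was lost in 4 of 6 such fits and the CDK4 call in 0 of 6. Of 5 tested CDK inhibitor genes, CDKN1A and CDKN2C rose by 0.40 and 0.20 and CDKN1C fell by 0.92. CDKN1A, which codes for p21, was at 117, 119 and 119 CPM with empty vector and at 160.4, 156 and 155 CPM with BBOX1, and each BBOX1 culture was above each control.

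In tumours, BBOX1 went with lower mitosis genes. Of the 29, 9 fell and 0 rose (edgeR, adjusted over 16126 genes), where 3.63% of all genes tested fell and 1.91% rose. All 29 fold changes were negative, with a median of -0.49 on the log2 scale beside 0.02 over all genes. For 22 of the 29 every BBOX1 tumour lay below every empty-vector tumour, as it did for 15.4% of all genes. Of the 22 replication genes 2 fell and 0 rose, 19 were negative, 12 lay apart downwards, and the median was -0.33.

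The mitotic entry genes gave 5 of the 9 falls. CCNB2, a B-type cyclin, was at 53.3, 61.8 and 54.7 CPM in the empty-vector tumours and at 39.4, 29.4 and 29.4 CPM in the BBOX1 tumours. CCNB1, which codes for the other main B-type cyclin that binds CDK1, was at 76.8, 81.7 and 74.2 CPM and 58.0, 52.2 and 46.5 CPM. Each BBOX1 tumour was below each control in both, and the log2 fold changes were -0.78 ± 0.14 and -0.57 ± 0.12 (edgeR adjusted p = 0.0135 and 0.0257).

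PLK1 was at 95.9, 115 and 96.6 CPM with empty vector and at 73.4, 60.7 and 56.3 CPM with BBOX1 (-0.69 ± 0.14, edgeR adjusted p = 0.0185). MYBL2 was at 229, 245 and 207 CPM and 153, 162 and 140.2 CPM (-0.57 ± 0.12, edgeR adjusted p = 0.0237). The groups lay apart for both. CCNA2, the cyclin of S phase and early mitosis, fell by 0.81 (edgeR adjusted p = 0.0383), from a mean of 53.2 to 30.2 CPM. EXOSC9, which overlaps CCNA2 on the other strand, was at 30.3 CPM with empty vector and 27.1 CPM with BBOX1.

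Later steps gave the other 4 falls. AURKA was at 54.6, 66.6 and 61.4 CPM with empty vector and at 42.2, 38.4 and 33.2 CPM with BBOX1 (-0.68 ± 0.13, edgeR adjusted p = 0.0183). CDC20 was at 156, 183 and 162 CPM and 121, 119 and 99.0 CPM (-0.56 ± 0.13, edgeR adjusted p = 0.0315). Both sets of tumours were apart. KIF23, the centralspindlin motor of cytokinesis, and MAD2L1, the checkpoint protein that holds CDC20 back, fell by 0.78 and 0.87 (edgeR adjusted p = 0.0372 and 0.0481). MKI67 was at 240.0, 305 and 261 CPM and 235, 182 and 156 CPM, apart but not past the threshold (-0.49 ± 0.16, adjusted p = 0.0989). UBE2C, the largest riser of the class in culture, had overlapping tumours (-0.17 ± 0.14, adjusted p = 0.483).

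Among replication genes, the falls were in fork and nucleotide supply. PCNA was at 103, 106 and 105 CPM in the empty-vector tumours and at 74.7, 73.8 and 68.4 CPM in the BBOX1 tumours (-0.53 ± 0.11, edgeR adjusted p = 0.0206). TYMS was at 37.9, 43.6 and 41.8 CPM and 29.4, 17.8 and 16.0 CPM (-0.96 ± 0.20, edgeR adjusted p = 0.0253). In both genes the BBOX1 tumours lay below the controls. ENOSF1, which overlaps TYMS on the other strand, was at 56.6 CPM with empty vector and 65.0 CPM with BBOX1.

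The phosphatase gene CDC25A, ORC1 and the helicase factor GINS2 lay apart downwards without passing, at -0.66 ± 0.18, -0.71 ± 0.20 and -0.43 ± 0.15 (adjusted p = 0.0567, 0.0635 and 0.116). All 9 licensing genes were negative, from -0.71 to -0.17, and 0 passed in edgeR, with 6 at an unadjusted p under 0.05 and 1 called by DESeq2. The drivers of S-phase entry went both ways. CCNE1, CCNE2 and E2F1 were positive, at 0.32 ± 0.21, 0.44 ± 0.22 and 0.04 ± 0.15, and CDK2 was at -0.04 ± 0.13, with overlapping groups in all 4. E2F1 was at 49.6, 50.4 and 56.6 CPM with empty vector and at 45.8, 66.6 and 47.6 CPM with BBOX1, replicate 2 being the high one.

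**Figure D4:**
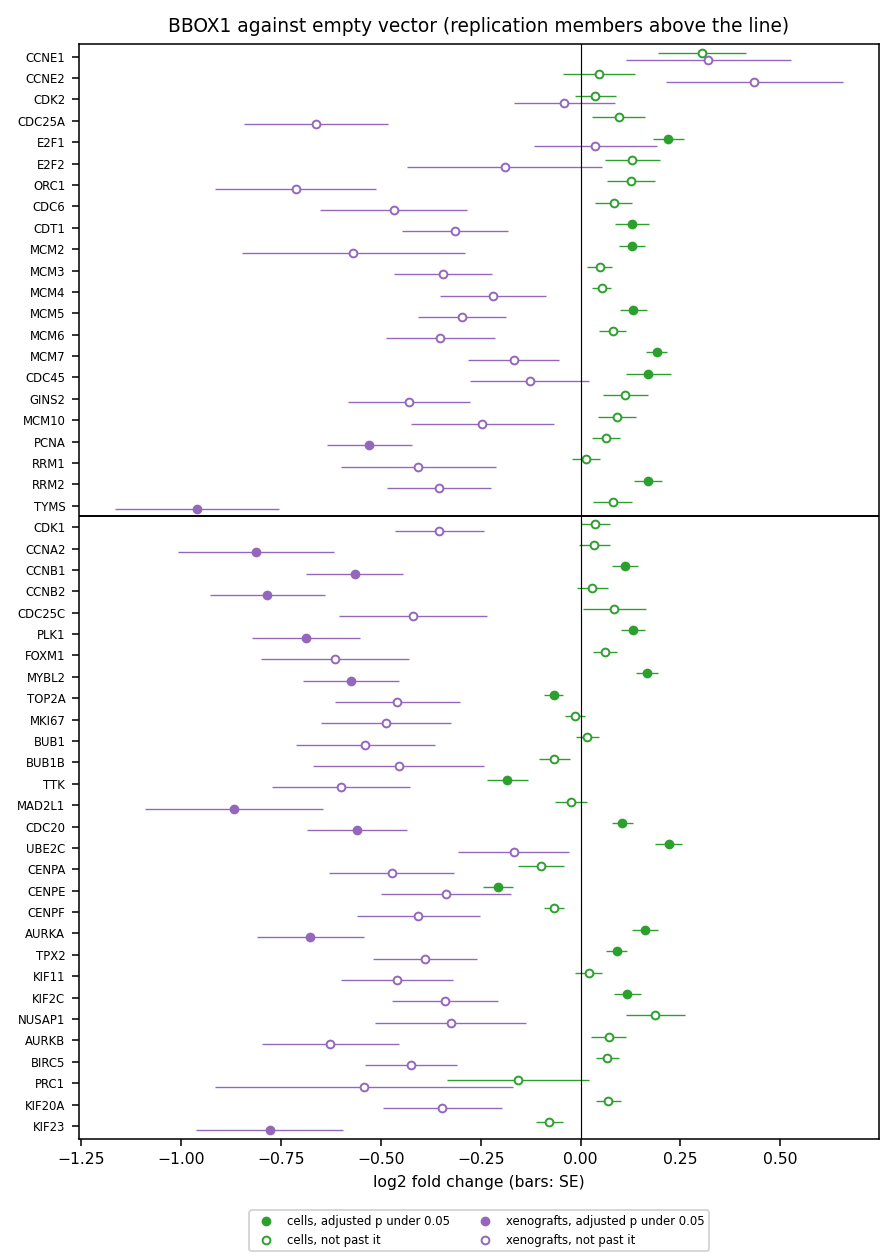
Log2 fold change of BBOX1 against empty vector (x axis, bars SE) for each of the 51 genes in cultured cells (green) and xenografts (purple), filled where the edgeR adjusted p was under 0.05. Cell values lie between -0.21 and 0.31, and all tumour values lie below 0 except those of CCNE1, CCNE2 and E2F1.

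Each of the 9 mitosis and 2 replication calls in tumours was lost at least once when a library was left out. BBOX1 replicate 3 was the lowest of its group for 27 of the 29 mitosis genes and replicate 1 the highest for 20, and empty-vector replicate 2 was the highest of its group for 26. Without BBOX1 replicate 1, 23 mitosis genes and 12 replication genes fell, where the share of all genes that fell was 14.7% in place of 3.63%, among them MCM2 at -1.08, MKI67 at -0.67 and TOP2A at -0.64 (edgeR adjusted p = 5.47e-04, 0.00289 and 0.00267). All 11 genes called with every library were among them, at -1.28 to -0.55. With BBOX1 replicate 3 left out, and likewise with empty-vector replicate 2 left out, 0 of the 51 were called by edgeR, with 16 and 15 mitosis genes at an unadjusted p under 0.05. Calls were fewer over all genes too, of which 0.927% and 1.03% fell in place of 3.63%. Without BBOX1 replicate 2, empty-vector replicate 1 or empty-vector replicate 3, 4, 3 and 2 mitosis genes and 0 replication genes were called lower. The share of all genes that fell was then 1.75%, 1.83% and 1.85%. In these 3 fits the mitosis medians were -0.49, -0.58 and -0.56, close to or below the -0.49 with all libraries. Over all 6 fits the medians ran from -0.61 to -0.37 for mitosis and from -0.40 to -0.28 for replication.

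The wider lists had 11 falls and 0 rises among 54 further mitosis genes in tumours (20.4%, beside 3.63% of all genes falling), all 54 negative, led by the cohesin protector SGO1 (-1.04 ± 0.18), the CDK subunit CKS1B (-0.76 ± 0.13) and the motor KIFC1 (-0.71 ± 0.14). Of 45 further replication genes 3 fell (6.67%) and 0 rose: RPA3 (-0.75 ± 0.11) of the single-strand binding complex, the polymerase delta subunit POLD2 (-0.72 ± 0.13) and GINS1 (-0.58 ± 0.14). RPA3 was the only one of these 6 genes whose call held with each tumour left out in turn. It was at 45.4, 46.8 and 43.6 CPM with empty vector and at 26.9, 26.3 and 27.2 CPM with BBOX1. CCND1, the D-type cyclin of G1, fell by 0.73, from 836, 1095 and 817 CPM to 576, 628 and 449.8 CPM. Its call was lost in 4 of 6 fits that left out a library. Of the 16 retinoblastoma and DREAM genes and of 5 tested CDK inhibitors 0 were called, with 3 and 1 at an unadjusted p under 0.05, and DESeq2 called 1 and 0. CDKN1A in tumours was at 122, 151 and 194 CPM with empty vector and at 164, 199.9 and 136 CPM with BBOX1, with overlapping groups.

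The difference between the settings was tested as an interaction over all 12 libraries. The BBOX1 effect was lower in tumours than in culture for 6 of 22 replication genes and 11 of 29 mitosis genes and higher for 0, where 3.26% of the 16927 genes tested were lower and 1.93% higher. The medians of the difference were -0.43 and -0.50 on the log2 scale, close to each other, beside -3.66e-04 over all genes. This fit gives all libraries 1 spread, although the biological coefficient of variation was 3.33% in cultures and 16.7% in tumours.

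MYBL2 and AURKA had the smallest p, with differences of -0.75 ± 0.11 and -0.85 ± 0.13 (edgeR adjusted p = 0.00259 and 0.00304). PLK1, CCNB1 and CCNB2 followed at -0.83 ± 0.14, -0.68 ± 0.12 and -0.82 ± 0.15 (edgeR adjusted p = 0.00447, 0.00511 and 0.00715). MYBL2, AURKA, PLK1, CCNB1 and CDC20 had risen in culture and fallen in tumours, each by its own test.

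Among replication genes, PCNA differed by -0.60 ± 0.10 and TYMS by -1.06 ± 0.22 (edgeR adjusted p = 0.00400 and 0.0168). ORC1, CDC25A, MCM5 and RRM2 differed by -0.85, -0.76, -0.43 and -0.53 (edgeR adjusted p = 0.0248, 0.0218, 0.0276 and 0.0309). CCNE1 and CCNE2 had positive differences of 0.02 ± 0.21 and 0.38 ± 0.21 that did not pass. PCNA, CCNB1, CCNB2, PLK1, MYBL2, CDC20 and AURKA kept the call with each of the 12 libraries left out in turn, and the other 10 lost it at least once. Without BBOX1 tumour replicate 1, 17 replication and 27 mitosis genes differed, where the share of all genes that were lower was 15.8% in place of 3.26%, and all 17 genes above were among them.

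Growth as a tumour went with lower levels of nearly all 51 genes. With empty vector 21 of 22 replication genes and 28 of 29 mitosis genes fell and 0 rose (edgeR, 15914 genes), where 33.1% of all genes tested fell and 35.5% rose. The medians were -0.80 and -1.03. With BBOX1, 21 of 22 and 29 of 29 fell and 0 rose (15906 genes), where 32.1% of all genes fell and 36.1% rose, and the medians were -1.17 and -1.72. Without BBOX1 tumour replicate 1, 22 of 22 and 29 of 29 fell, where 37.6% of all genes did, with medians of -1.23 and -1.88. Every tumour lay below every culture for 22 of 22 and 28 of 29 genes with empty vector and for 22 of 22 and 29 of 29 with BBOX1, as it did for 36.3% of all genes in each comparison, and above for 0, where 36.9% and 37.8% of all genes did. The 2 comparisons share no library. The fibroblast genes moved the other way between the same libraries, from 8.95 to 10.4 CPM in cultures to 243 to 432 CPM in tumours. So did the 786-O list, from 2687 to 2880 CPM in cultures to 4853 to 6076 CPM in tumours. The part of other cells in the falls of the 51 genes was not tested.

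MCM10, which recruits polymerase alpha to origins, was at 52.0, 53.8 and 54.9 CPM in empty-vector cultures and 12.3, 14.4 and 13.2 CPM in their tumours, and at 58.0, 56.2 and 57.0 CPM and 13.7, 9.81 and 10.0 CPM with BBOX1. No tumour came near a culture, and the log2 fold changes were -2.00 ± 0.08 and -2.34 ± 0.14 (edgeR adjusted p = 9.32e-10 and 2.27e-06). CDC6 and MCM4 fell by 1.74 and 1.33 with empty vector and by 2.30 and 1.60 with BBOX1. MCM6 fell by 1.02 and 1.45.

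Of the mitosis genes, CENPE, TOP2A and TPX2 had the smallest p with empty vector, at -1.67 ± 0.08, -1.65 ± 0.08 and -1.51 ± 0.08 (edgeR adjusted p = 2.37e-09, 2.58e-09 and 6.87e-09). AURKA, TPX2 and PLK1 had it with BBOX1, at -2.23 ± 0.11, -1.99 ± 0.10 and -2.10 ± 0.11 (edgeR adjusted p = 8.62e-07, 1.18e-06 and 1.50e-06). The mean AURKA level in BBOX1 tumours was 37.9 CPM against 179.8 CPM in BBOX1 cultures, which is 21.1% of it. MKI67 stood at 27.7% and PCNA at 47.3%. Without BBOX1 tumour replicate 1 the log2 fold changes with BBOX1 were -2.37 for AURKA, -2.13 for TPX2, -2.27 for PLK1 and -2.56 for MCM10.

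The exceptions were CCNE1 in both comparisons and MYBL2 with empty vector. CCNE1 was at 9.24, 8.88 and 9.10 CPM in empty-vector cultures and 7.20, 5.51 and 8.09 CPM in their tumours (-0.38 ± 0.16, adjusted p = 0.0558), and without BBOX1 tumour replicate 1 it passed with BBOX1 at -0.36 ± 0.14 (edgeR adjusted p = 0.0368). MYBL2 was at 245, 242 and 246 CPM and 229, 245 and 207 CPM (-0.09 ± 0.07, adjusted p = 0.242), and with BBOX1 it was lower in tumours, at -0.84 ± 0.09 (edgeR adjusted p = 4.58e-05). Its mean in empty-vector tumours was 92.9% of that in their cultures, and its mean in BBOX1 tumours 55.3%. After the correction for gene length and GC content described next, CCNE1 in both comparisons and MYBL2 were called lower too.

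The order of the classes here depends on gene length and GC content. After that correction the medians with empty vector were -1.24 for replication and -1.22 for mitosis, beside a median of -0.18 over all genes in place of 0.04. With BBOX1 they were -1.54 and -1.79, beside -0.18 in place of 0.07. Relative to all genes, replication with empty vector moved from -0.84 to -1.06 and mitosis from -1.07 to -1.03, so that the class with the larger fall changed. With BBOX1 they moved from -1.24 to -1.36 and from -1.78 to -1.62, and mitosis kept the larger fall.

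**Figure D5:**
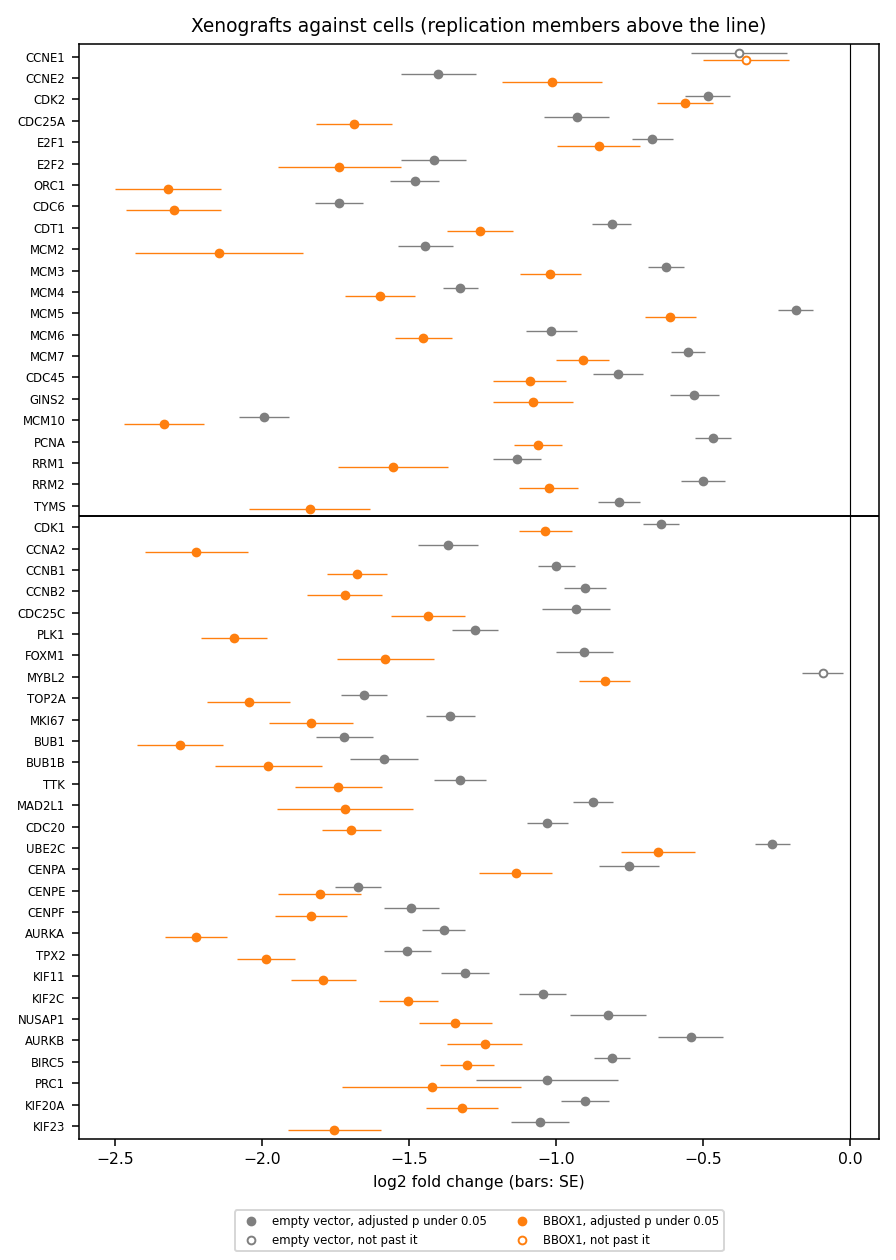
Log2 fold change of xenografts against cultured cells (x axis, bars SE) for each of the 51 genes with empty vector (grey) and with BBOX1 (orange), filled where the edgeR adjusted p was under 0.05. All values lie below 0, and the orange points lie left of the grey ones in 49 genes, CCNE1 and CCNE2 being the exceptions.

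The genes were also grouped by promoter motif, which stood only in part for the classes. In culture the 13 genes with a CHR element alone had a median log2 fold change of -0.01 (2 rose, 1 fell), beside 8.53% and 7.86% of all genes, and the 11 with an E2F motif alone had 0.11 (4 rose, 0 fell). In tumours the medians were -0.54 (5 fell) and -0.43 (2 fell), beside 3.63% of all genes falling, and without BBOX1 replicate 1 they were -0.69 and -0.52 (12 and 6 fell, beside 14.7%). In the difference the order turned, with -0.49 for the CHR genes and -0.56 for the E2F genes. In each of them 3 were lower, beside 3.26% of all genes. Without BBOX1 tumour replicate 1 the medians were -0.74 and -0.64, with 12 and 10 lower beside 15.8% of all genes. The 13 genes with neither motif had 0.11 in culture (5 rose, 1 fell) and -0.35 in tumours (3 fell). The 4 with both had 0.06 and -0.35, with 0 called. Without BBOX1 tumour replicate 1 the tumour medians were -0.44 and -0.41 (7 and 3 fell, beside 14.7%). In the difference the same groups had -0.51 and -0.42 (6 and 1 lower), and without that library -0.55 and -0.50 (10 and 4 lower). For tumours against cultures with empty vector the CHR genes had -1.28 and the E2F genes -0.79, and with BBOX1 they had -1.79 and -1.26 (-2.03 and -1.23 without BBOX1 tumour replicate 1). The ranges of the motif groups overlapped in each comparison, and no test was made between them.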

How the data were processed

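PolyA RNA was sequenced as paired reads of 100 bases with a kit that does not mark strand, per the labels' protocols. The deposited values are raw counts per gene, which the authors made with fastp, STAR and featureCounts on hg38, per the submitters' processing notes. How reads of the mouse host were treated is not given in the sources used here. Gene IDs matched GENCODE 29. Low genes were dropped by filterByExpr (minimum count 10), libraries were scaled by TMM, and the quasi-likelihood test of edgeR 4.0.16 (R 4.3.3) was run with Benjamini-Hochberg adjustment over all genes tested and a threshold of 0.05. Each comparison was fitted on its own groups and the difference on all 12 libraries. CPM are TMM-scaled, and log2 CPM used a prior count of 2. DESeq2 1.42.0 was an alternative. Other alternatives changed the size factors, the filter (1 CPM in 3 libraries, or none), a replicate block, a correction for length and GC content by splines, all libraries in 1 fit, and each library left out. The fit was also run on counts simulated from its own estimates of spread. Such counts cannot show the effect of an outlying library, and nothing is concluded from them here. The members and lists were chosen with earlier results of these data known, so direction and counts are no independent support. Genes described with values in each library were up to 5 per class with the smallest p in either BBOX1 comparison or the difference, and up to 3 between settings. Up to 3 called genes of each further list, BBOX1, MKI67 and PCNA were added. Genes described outside that rule were chosen after their values were seen. Samples were grouped by title.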

Additional observations from a re-analysis of the deposited data

Results flagged for a closer look

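In 17 of the 51 genes the log2 BBOX1 effect in xenografts minus that in cultures differed from 0 (edgeR quasi-likelihood test of the interaction, adjusted p under 0.05, 12 libraries), each time downwards. Among replication genes the differences were -0.60 for PCNA, -1.06 for TYMS, -0.76 for CDC25A, -0.85 for ORC1, -0.43 for MCM5 and -0.53 for RRM2. Among mitotic entry genes they were -0.75 for MYBL2, -0.83 for PLK1, -0.68 for CCNB1, -0.82 for CCNB2, -0.86 for CCNA2 and -0.40 for CDK1. Among later mitotic genes they were -0.85 for AURKA, -0.67 for CDC20, -0.50 for BIRC5, -0.71 for AURKB and -0.49 for TPX2. Tumour libraries spread more than cultures, and the part of that in these differences was not tested.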

How the results depend on the processing

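In culture the 7 replication rises ranged from 5 to 8 and the 8 mitosis rises from 6 to 8 with a library left out. In these fits 6.32% to 7.66% of all genes rose, against 8.53% with every library. With all 12 libraries in 1 fit, 0 replication rises, 0 mitosis rises and 0 mitosis falls were left, and after the correction for length and GC content 0 mitosis falls were called, TTK staying at -0.14 (-0.18 before) and TOP2A at -0.0022. Of all genes, 1 rose and 1 fell in the fit of 12, and 11.6% rose and 4.83% fell after the correction. The 3 mitosis falls became 2 with each library left out in turn, where 5.77% to 6.56% of all genes fell, against 7.86%.

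In tumours the 2 replication falls became 6 without the low-count filter, 4 with DESeq2, 1 with the replicate block and 11 in the fit of 12, and ranged from 0 to 12 with a library left out. The 9 mitosis falls became 21, 16, 5 and 24, and ranged from 0 to 23. The share of all genes that fell moved as well, from 3.63% to 4.45%, 6.46%, 2.18% and 12.4% in the same order. With a library left out it ranged from 0.927% to 14.7%. In the difference, the 6 replication genes became 12 without the filter and 12 with DESeq2 (range 1 to 17), and the 11 mitosis genes 19 and 18 (range 6 to 27). The share of all genes that were lower went from 3.26% to 3.21% and 7.41% (range 1.18% to 15.8%). Same-numbered libraries did not deviate together (correlations of -0.083 to 0.037), so the replicate numbers were not taken as pairs, and calls lost under the block are not a weaker effect.

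Between settings with empty vector, the replication median was -0.87 without the filter and -1.24 after the length and GC correction, and the mitosis median -1.22 after it. With BBOX1 the replication median after it was -1.54. Without the filter the median of all genes was 0.15 with empty vector and 0.25 with BBOX1.

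With CCNA2 and MYBL2 counted as replication genes, the replication level was 6.45 in BBOX1 cultures, 6.34 in empty-vector cultures and 5.403 in empty-vector tumours, and the mitosis level 7.04 and 7.01 in the cultures. The gap was then 0.58, 0.67, 0.32 and 0.49 in BBOX1 cultures, empty-vector cultures, BBOX1 tumours and empty-vector tumours. With the median in place of the mean over genes, the replication level was 6.27, 6.16 and 5.35 in the groups named first, the mitosis level 7.26 and 7.22, and the gap 0.99, 1.06, 0.56 ± 0.20 and 0.69 ± 0.10 (SD) in BBOX1 cultures, empty-vector cultures, BBOX1 tumours and empty-vector tumours, so that the tumour gaps then differed by less than the larger SD.

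For the further lists in culture, the fit of 12 gave 0 CDK inhibitor rises and falls, 0 G1 rises, 0 mitosis rises and falls, 0 retinoblastoma and DREAM rises and 0 replication rises. DESeq2 gave 1 G1 rise, and the length and GC correction 4 G1 rises, 8 mitosis rises and 3 mitosis falls. Leaving out a library gave 1 to 3 G1 rises, 1 to 3 retinoblastoma and DREAM rises, 4 to 6 replication rises and 0 to 1 replication falls. In tumours, falls without the filter were 2 CDK inhibitors, 2 G1 genes, 25 mitosis genes, 1 retinoblastoma and DREAM gene and 8 replication genes. DESeq2 gave 19, 1 and 5 for the last 3 lists, the block 6 mitosis falls, and the length and GC correction 1 retinoblastoma and DREAM fall. The fit of 12 gave 1, 3, 34, 2 and 13 falls in that order of lists and 1 retinoblastoma and DREAM rise. Ranges with a library left out were 0 to 2, 0 to 3, 0 to 34, 0 to 2 and 1 to 13 falls, and 0 to 1 replication rises.

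Uncalled values near 0 changed sign. After the length and GC correction the log2 values were 0.053 for MKI67, 0.035 for MAD2L1 and 0.017 for CENPF in culture, and 0.023 for CDK2 and -0.038 for E2F1 in tumours. With a library left out, the values in culture ran from -0.013 to 0.036 for RRM1, -0.0063 to 0.088 for CCNA2, -0.014 to 0.057 for CCNB2, -0.030 to 0.012 for MKI67, -0.052 to 0.014 for MAD2L1 and -0.0062 to 0.041 for KIF11. In tumours they ran from -0.11 to 0.028 for CDK2 and from -0.16 to 0.13 for E2F1. The CCNE1 difference was -0.0039 with DESeq2 size factors, -0.033 without the filter and -0.0046 with DESeq2, and ran from -0.13 to 0.14. The cause of these shifts was not tested.

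Over all genes, calls with a library left out ranged in tumours from 153 to 2447 falls and from 22 to 1854 rises, against 586 and 308. In culture the fit of 12 called 1 rise and 1 fall, against 1276 and 1176.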
